A study of Homo sapiens with 8 samples.

Results

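The 10 mRNAs described here encode the core of the microRNA machinery: the Argonautes AGO1, AGO2, AGO3 and AGO4, the GW182 proteins TNRC6A, TNRC6B and TNRC6C, and the processing factors DICER1, TARBP2 and DROSHA. They were chosen by gene symbol, and all 10 were found among the 59414 genes of the count table and among the 11969, 11777, 10643 and 10833 genes of the 4 editing tables. The 8 libraries were all made from the human embryonic kidney line HEK293T, and every one carried P-body-directed RNA editors (PB-TRIBE-STAMP). There were 4 groups with 2 libraries in each: P-bodies after sorting, set against cytosol, and cells given an siRNA against EDC4 (siEDC4) set against cells given a control siRNA (siNC). EDC4 is a scaffold of the decapping complex. In the editing tables, A-to-I scores record the deaminase of the TRIBE approach and C-to-U scores the deaminase of the STAMP approach. A score is edited reads as a percentage of the reads listed for the gene with that editor. These are fewer than its gene counts: for DICER1, 13093 A-to-I reads beside 20303 counts in sorted P-body library 1. In cytosol library 1 they were 4816 beside 5831. How the listed reads were chosen is not given in the sources used here. No library without editors was included, so the editors' marks cannot be told apart from variants or from edits the cells make themselves.

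DROSHA cuts primary microRNA transcripts in the nucleus, and DICER1 with its partner TARBP2 cuts the resulting hairpins in the cytoplasm. Argonaute proteins hold the mature microRNA and find target mRNAs, and GW182 proteins bind Argonaute and recruit deadenylases, decapping factors and translational repressors. Argonaute and GW182 proteins are known components of P-bodies, the cytoplasmic granules that gather repressed mRNA and decay factors. The data here concern where the mRNAs of these proteins were found, not the proteins.

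The sort libraries held 21186963 to 23716926 gene counts each, and the knockdown libraries 5697417 to 6294767 reads of listed genes. All 6 markers of HEK293T cells were detected (summed 294 to 307 CPM in sorted P-bodies and 460 to 483 CPM in cytosol), while blood markers summed to 0.681 to 0.888 CPM and 1.19 to 1.72 CPM with CD3E and HBB at 0. Fibroblast markers, 5 of 5 with counts, summed to 17.5 to 19.6 CPM in sorted P-bodies and 25.8 to 28.7 CPM in cytosol. Mitochondrially encoded mRNAs, 7 of 7 detected, summed to 8905 to 13605 CPM in sorted P-bodies and 47429.5 to 50339 CPM in cytosol, and 4 nuclear RNAs to 1558 to 2597 CPM and 1538 to 1644 CPM. The part of these shifts in the results below was not tested. Libraries were made from 50 ng of sorted RNA and 100 ng of cytosolic RNA, so fraction and input amount cannot be told apart. Whether a group's libraries are separate cultures is not in the labels, and p-values measure the spread between these libraries, which may be technical. In gene counts the sorted P-body libraries differed from each other far more than the cytosol libraries did. Their chi-square per degree of freedom was 25.4, against 3.23 in cytosol. As the molecule, the labels give total RNA for sorted P-bodies, cytoplasmic RNA for cytosol and polyA RNA for the knockdown libraries.

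Most of the 10 mRNAs are long and carry long 3′ untranslated regions (3′UTRs). In GENCODE v29 the principal transcripts of 9 members fall in the top quartile of tested genes by length, from 5305 nt for DROSHA to 19687 nt for AGO3, and TARBP2, at 1867 nt, falls in the lowest. AGO3 has a 3′UTR of 16755 nt, TNRC6B 12567 nt, AGO2 11888 nt and AGO1 10921 nt, against a median of 1096.5 nt over tested genes. GC content of the 3′UTR was lowest in DICER1 (34.1%) and highest in TARBP2 (53.0%), with a median of 42.3% over tested genes. The AU-rich pentamer ATTTA occurred 3.98 times per kb in the 3′UTR of DICER1 and not at all in that of TARBP2, and the median was 1.64 per kb. AU-rich elements are binding sites for proteins that control mRNA decay, and the longer element TATTTAT, which holds ATTTA within it, was found on the sense strand of the 3′UTRs of AGO1 (4 copies), AGO2 (7), AGO3 (6), TNRC6B (2) and DICER1 (1), and of 33.8% of the 13211 3′UTRs searched. A match describes the letters only. Examples of 30 bases from the GRCh38 annotation of 3′UTRs, read 5′ to 3′ with the element in capitals, show the element in 4 of the 5 members that hold it:
DICER1, chr14:95088409-95088438, minus strand: aaatctcttaaTATTTATaaactacctgat
TNRC6B, chr22:40328250-40328279, plus strand: ctagttagtttTATTTATagcaacttgatt
TNRC6B, chr22:40334054-40334083, plus strand: ccttggaatttTATTTATtttgtttatctg
AGO3, chr1:36057402-36057431, plus strand: cttttcttttaTATTTATtagaatagtgct
AGO1, chr1:35923498-35923527, plus strand: gacgttattttTATTTATatatggggccta

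The sort asked which mRNAs are more abundant in P-bodies than in cytosol, and 6 members were more abundant in sorted P-bodies, 1 was less abundant and 3 did not pass the test (edgeR quasi-likelihood test, adjusted p under 0.05). Of the 18745 genes tested, 28.8% passed as higher and 29% as lower, 57.8% in all. The median log2 fold change of the members was 0.59, beside -0.03 over all genes tested. DICER1 stood highest, TNRC6A, TNRC6B and AGO2 followed, and the estimates of AGO1, AGO4 and DROSHA lay between -0.09 and -0.01 on the log2 scale. Values are CPM, the counts scaled to a common library size after TMM normalization.

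**Figure D1:**
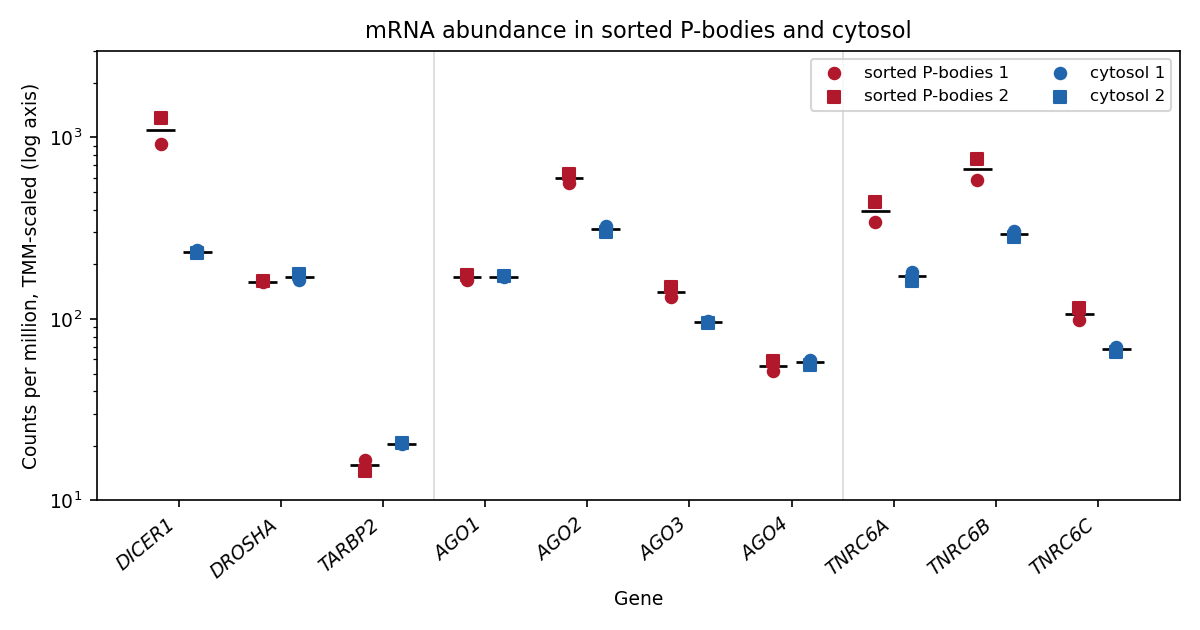
Abundance of the 10 mRNAs in each library of the sort, in TMM-scaled CPM on a log axis; circles and squares are libraries 1 and 2, bars the group means. DICER1 reached 922 and 1281 CPM in sorted P-bodies, against 238 and 231 CPM in cytosol, while the points of AGO1 and AGO4 overlap between fractions.

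Among the processing factors, DICER1 (ENSG00000100697.15, chromosome 14, 95086228 to 95158010, minus strand, hg38) had 922 and 1281 CPM in sorted P-bodies, against 238 and 231 CPM in cytosol. The fractions did not overlap, and both sorted libraries lay far above both cytosol libraries. The difference was 4.69-fold (log2 2.23 ± 0.16, SE, adjusted p = 6.0e-06, edgeR), above 98.2% of genes tested, and within the batches of the labels it was 1.95 in batch 1 and 2.47 in batch 2. DROSHA (ENSG00000113360.17, chromosome 5, 31400494 to 31532196, minus strand) had 159 and 161 CPM in sorted P-bodies, against 165 and 177 CPM in cytosol. Both cytosol libraries were slightly higher, but the difference did not pass (log2 -0.09 ± 0.11, SE, adjusted p = 0.47, edgeR). With libraries scaled to their size alone it passed as lower (-0.30, adjusted p = 0.031), a scaling that moves the median of all genes to -0.23 and the genes called to 4257 higher and 6911 lower, against 5401 and 5440. TARBP2 (ENSG00000139546.11, chromosome 12, 53500921 to 53506431, plus strand) had 16.7 and 14.5 CPM in sorted P-bodies, against 20.5 and 20.7 CPM in cytosol. It was the least abundant of the 10 in CPM and the only member to fall, to 0.761 of its cytosolic level (log2 -0.39 ± 0.12, SE, adjusted p = 0.016, edgeR). That call was lost without cytosol library 1 (adjusted p = 0.084) or 2 (0.105) and with DESeq2 (0.092). Per kb of gene length, the ratio of DICER1 to DROSHA mRNA was 3.55 and 4.89 in sorted P-bodies, against 0.888 and 0.801 in cytosol. That of DICER1 to TARBP2 mRNA was 17.7 and 28.5, against 3.75 and 3.61. Gene length here is the deposited one, 4090 nt for TARBP2, whose principal transcript has 1867 nt, so the ratios depend on it. Their change between fractions does not.

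Among the Argonautes, AGO2, which encodes the Argonaute known to slice fully paired targets, and AGO3 rose in sorted P-bodies, while AGO1 and AGO4 did not pass. AGO2 (ENSG00000123908.12, chromosome 8) had 561 and 627 CPM in sorted P-bodies, against 325 and 300.3 CPM in cytosol, a fold of 1.90 (log2 0.93 ± 0.12, SE, adjusted p = 0.00011, edgeR). AGO3 (ENSG00000126070.20, chromosome 1, 35930718 to 36072500, plus strand) had 132 and 149.6 CPM in sorted P-bodies, against 98.0 and 95.2 CPM in cytosol, a fold of 1.46 (0.54 ± 0.11, SE, adjusted p = 0.0022, edgeR). The fractions did not overlap for either gene, though the call for AGO3 was lost without cytosol library 2 (adjusted p = 0.064), and with the trend of fold change on gene length removed its value was -0.10. AGO1 (ENSG00000092847.13, chromosome 1, 35869808 to 35930532, plus strand) had 164 and 176 CPM in sorted P-bodies, against 170.3 and 171 CPM in cytosol. AGO4 (ENSG00000134698.11, chromosome 1, 35808016 to 35857890, plus strand) had 51.9 and 58.5 CPM in sorted P-bodies, against 59.1 and 56.0 CPM in cytosol. For both the fractions overlapped, and the batches gave opposite signs (log2 -0.01 ± 0.11 and -0.06 ± 0.11, SE, adjusted p = 0.95 and 0.65, edgeR). AGO4, AGO1 and AGO3 lie in this order on the plus strand of chromosome 1, and the difference between their changes was not tested. Per kb of gene length, AGO2 made up 58.5 and 58.9% of the summed Argonaute mRNA in sorted P-bodies, against 45.2 and 43.7% in cytosol, and AGO1 made up 19.6 and 18.8%, against 27.0 and 28.5%. The share of AGO3 was nearly equal in both (10.3 and 10.5%, against 10.2 and 10.4%). How reads that match several Argonaute genes were counted is not given in the sources used here, and these paralogs share coding sequence.

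All 3 GW182 mRNAs rose in sorted P-bodies. TNRC6B (ENSG00000100354.21, chromosome 22, 40044817 to 40335808, plus strand) had 584 and 761 CPM in sorted P-bodies, against 306 and 282 CPM in cytosol. TNRC6A (ENSG00000090905.19, chromosome 16, 24610209 to 24827632, plus strand) had 340 and 442 CPM in sorted P-bodies, against 181 and 162 CPM in cytosol. TNRC6C (ENSG00000078687.17, chromosome 17, 77959240 to 78108835, plus strand) had 98.7 and 114 CPM in sorted P-bodies, against 70.1 and 65.9 CPM in cytosol. The fractions did not overlap for any of the 3. The folds were 2.29 for TNRC6B (log2 1.19 ± 0.14, SE, adjusted p = 7.9e-05, edgeR), 2.28 for TNRC6A (1.19 ± 0.14, SE, adjusted p = 8.4e-05) and 1.57 for TNRC6C (0.65 ± 0.11, SE, adjusted p = 0.00085). TNRC6A and TNRC6B kept close to constant shares of the summed GW182 mRNA per kb (40.8 and 41.3% for TNRC6A in sorted P-bodies, against 39.3 and 38.3% in cytosol; 45.4 and 46.2% for TNRC6B, against 43.0 and 43.4%). TNRC6C made up 13.8 and 12.5% in sorted P-bodies, against 17.7 and 18.3% in cytosol. These shares rest on the deposited gene length, which for TNRC6A is 12968 nt beside a principal transcript of 8438 nt.

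Per kb of gene length, the order of levels in sorted P-bodies ran from DICER1 (86.9 CPM per kb) through AGO2 (37.5), TNRC6B (33.6), TNRC6A (30.2), DROSHA (20.6), AGO1 (12.2), TNRC6C (9.59), AGO4 (7.43) and AGO3 (6.65) to TARBP2 (3.82). The libraries of AGO2 and TNRC6B, of TNRC6B and TNRC6A, and of AGO4 and AGO3 overlapped, and the other neighbours in this order did not. In cytosol the order was DROSHA (21.97 CPM per kb), AGO2 (19.7), DICER1 (18.5), TNRC6B (14.7), TNRC6A (13.2), AGO1 (12.3), AGO4 (7.75), TNRC6C (6.12), TARBP2 (5.03) and AGO3 (4.57), with no neighbours that overlapped. By this length DICER1 mRNA was first in sorted P-bodies and DROSHA mRNA first in cytosol. The deposited gene length exceeds that of the principal transcript by unlike amounts (12968 against 8438 nt for TNRC6A, 7782 against 5305 nt for DROSHA). The order by principal transcript was not worked out, and neighbours could change places.

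The members' changes are set here beside those of genes with similar transcripts. In the quartile of tested genes with the lowest 3′UTR GC content (7.84 to 35.3%), which holds DICER1, the median log2 fold change was 0.71 and 64.3% passed as higher in sorted P-bodies. In the second quartile, with AGO3, AGO4, TNRC6A, TNRC6B and DROSHA, the median was 0.27 and 46.1% passed as higher. In the third, with AGO1, AGO2 and TNRC6C, the median was -0.29 and 15.9% passed as higher, and in the fourth, with TARBP2, -0.47 and 6.27%. AGO4 and DROSHA lay below the median of their quartile, and the other members lay above that of theirs. Among genes with the longest transcripts, the quartile of 9 members, 54.5% passed as higher and the median was 0.48. Removing the trend with gene length left 1.79 for DICER1, 0.74 for TNRC6A, 0.58 for TNRC6B, 0.40 for AGO2 and 0.25 for TNRC6C, and gave -0.48 for AGO1, -0.34 for DROSHA and -0.29 for AGO4, as values with no test.

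Genes that work beside the members moved in both directions, and their counts stand beside 28.8% of all genes higher and 29% lower. Of 15 genes of the Microprocessor, of export and of Dicer cofactors, 6 rose and 6 fell in sorted P-bodies (median log2 0.10, beside -0.03 over all genes), led by LIN28B, which binds the let-7 precursor (375 and 504 CPM in sorted P-bodies, against 98.5 and 97.1 CPM in cytosol, log2 2.17 ± 0.15, SE, adjusted p = 5.0e-06, edgeR). The cap-binding subunit NCBP2 had 25.6 and 21.6 CPM in sorted P-bodies, against 46.2 and 48.9 CPM in cytosol (-1.01 ± 0.11, SE, adjusted p = 5.5e-05, edgeR). Of 24 genes of Argonaute loading and cofactors, 14 were higher and 3 lower (median 0.35), among them the RNA-binding proteins PUM2 (1.61 ± 0.12), TRIM71 (1.60 ± 0.11) and FXR1 (1.52 ± 0.13, SE, adjusted p between 5.5e-06 and 1.3e-05 for the 3, edgeR). Of 25 silencing effectors recruited by GW182, 15 were higher and 6 lower (median 0.51). Within that list the exonuclease XRN1 had 308 and 465 CPM in sorted P-bodies, against 84.1 and 83.1 CPM in cytosol, and the decapping enzyme DCP2 had 301 and 397 CPM, against 97.8 and 94.7 CPM. Their changes were 2.21 ± 0.18 and 1.86 ± 0.14 (log2, SE, adjusted p = 9.8e-06 and 7.7e-06, edgeR).

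A-to-I editing of all 10 mRNAs was higher in sorted P-bodies, as it was for 73.5% of the 11303 genes tested (1.08% were lower, 74.6% in either direction). The median log2 odds ratio of the members was 1.56, beside 1.46 over all genes, and the median score of all genes was 7.19 and 7.41% in the sorted libraries, against 2.90 and 2.77% in the cytosol libraries. AGO2 carried the highest score of the 10 in sorted P-bodies, with 18.2 and 19.1% of its reads edited (1525 of 8398 and 1434 of 7494), against 6.93 and 5.65% in cytosol (464 of 6694 and 356 of 6304). It lay above 96.5 and 97.1% of genes in the sorted libraries. TNRC6A scored 16.3 and 16.7% in sorted P-bodies, against 6.19 and 5.66% in cytosol, and TNRC6B 15.3 and 15.5%, against 7.43 and 5.66%. TNRC6C scored 13.8 and 12.5%, against 5.84 and 6.91%. In each of the 3 GW182 mRNAs both sorted libraries stood well above both cytosol libraries.

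AGO1 scored 13.7 and 12.8% for A-to-I in sorted P-bodies, against 4.14 and 3.28% in cytosol. AGO3 scored 11.7 and 11.8%, against 3.59 and 3.04%, and AGO4 11.5 and 12.6%, against 3.03 and 2.74%. The Argonautes gave the 4 largest odds ratios of the 10: log2 2.19 ± 0.22 for AGO4, 1.99 ± 0.15 for AGO1, 1.96 ± 0.17 for AGO3 and 1.77 ± 0.12 for AGO2 (SE, adjusted p between 4.8e-09 and 1.9e-07, edgeR). DICER1 scored 11.1 and 11.8% in sorted P-bodies, against 4.94 and 3.97% in cytosol, and DROSHA 6.38 and 9.38%, against 3.70 and 3.10%. TARBP2, with few reads, scored 7.77 and 6.99% (22 of 283 and 13 of 186 reads), against 3.58 and 4.08% (16 of 447 and 18 of 441 reads), and exact 95% intervals of its scores overlapped between the fractions. The odds ratios of these and the GW182 mRNAs ran from 1.01 ± 0.39 for TARBP2 (adjusted p = 0.029, edgeR) to 1.65 ± 0.12 for TNRC6A (adjusted p = 9.6e-09). The call for TARBP2 was lost when any library was left out (adjusted p from 0.0505 to 0.138). All 10 members were higher in both batches.

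**Figure D2:**
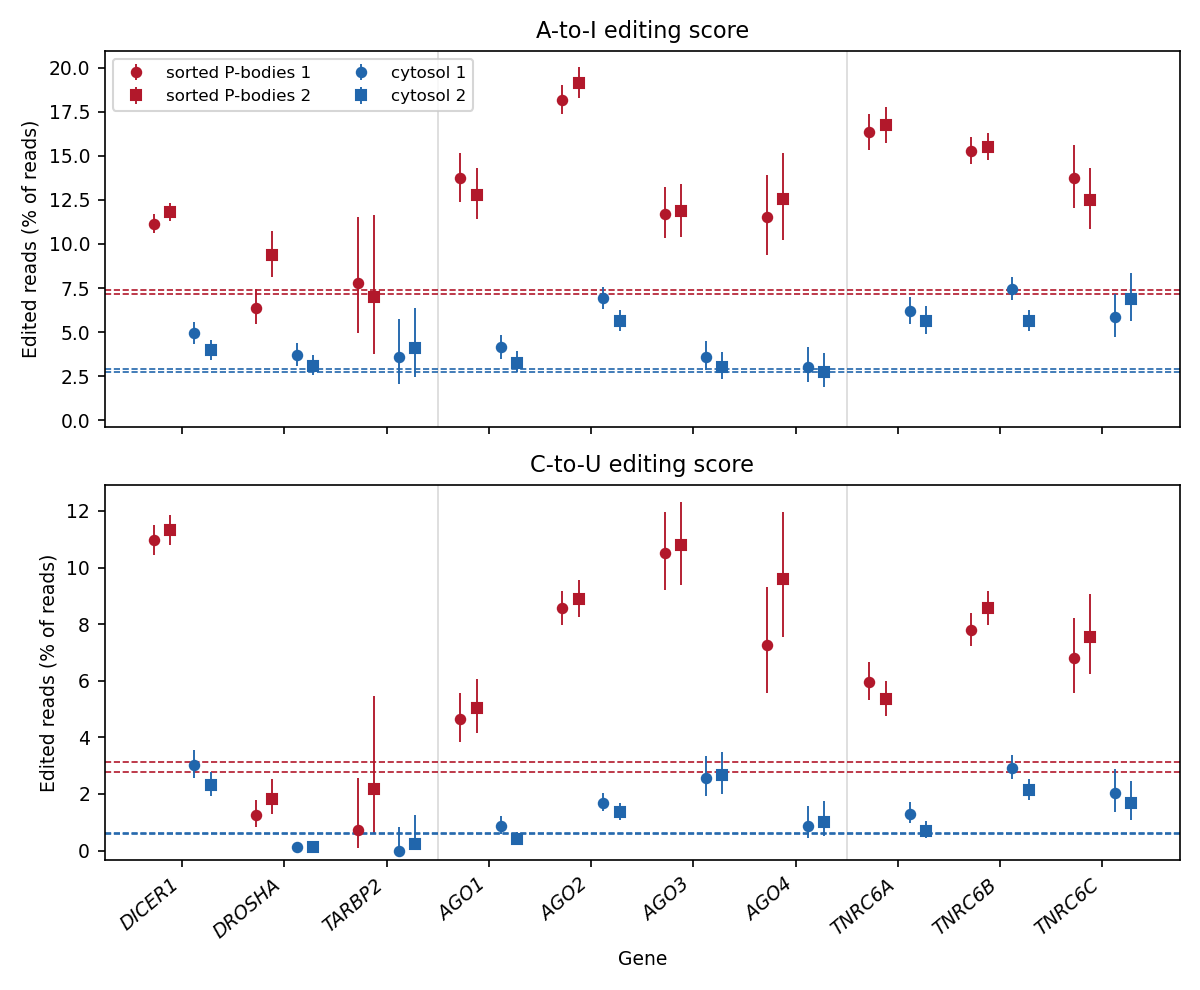
A-to-I (top) and C-to-U (bottom) editing scores of the members in each library of the sort, in percent of reads, with exact 95% binomial intervals that cover counting error only; dashed lines are the median scores of all genes in each library. AGO2 has the highest A-to-I score in sorted P-bodies (18.2 and 19.1%) and DICER1 the highest C-to-U score (10.97 and 11.3%).

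C-to-U editing of all 10 mRNAs was also higher in sorted P-bodies, as it was for 68% of the 10613 genes tested (0.292% were lower, 68.3% in either direction), but the order of the members differed from that for A-to-I. The median log2 odds ratio of the members was 2.60, beside 2.33 over all genes, and the median score of all genes was 2.76 and 3.13% in the sorted libraries, against 0.633 and 0.595% in the cytosol libraries. DICER1 and AGO3 carried the highest scores. DICER1 had 10.97 and 11.3% of reads edited in sorted P-bodies (1437 of 13099 and 1632 of 14424), against 3.01 and 2.32% in cytosol (145 of 4813 and 111 of 4786), a log2 odds ratio of 2.20 ± 0.29 (SE, adjusted p = 3.2e-05, edgeR). AGO3 had 10.5 and 10.8%, against 2.55 and 2.67% (2.15 ± 0.24, SE, adjusted p = 1.1e-05, edgeR). Both genes were near the top in cytosol too, DICER1 above 91.8 and 88.9% and AGO3 above 88.5 and 91.9% of genes.

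Of the other Argonautes, AGO2 scored 8.56 and 8.88% for C-to-U in sorted P-bodies, against 1.69 and 1.36% in cytosol. AGO4 scored 7.28 and 9.60%, against 0.884 and 1.003%, and AGO1 4.65 and 5.05%, against 0.855 and 0.391%. Sorted and cytosol libraries were far apart for each, with log2 odds ratios of 3.26 ± 0.35 for AGO4, 3.03 ± 0.35 for AGO1 and 2.63 ± 0.28 for AGO2 (SE, adjusted p between 7.2e-06 and 1.3e-05, edgeR). TNRC6B scored 7.81 and 8.56% in sorted P-bodies, against 2.92 and 2.13% in cytosol, TNRC6C 6.81 and 7.56%, against 2.03 and 1.67%, and TNRC6A 5.96 and 5.35%, against 1.298 and 0.703%. The GW182 odds ratios were 1.79 ± 0.28, 2.03 ± 0.28 and 2.56 ± 0.32 (SE, adjusted p between 2.3e-05 and 0.00013, edgeR). DROSHA scored low, 1.25 and 1.83% in sorted P-bodies (30 of 2406 and 35 of 1913 reads), against 0.119 and 0.109% in cytosol (4 of 3353 and 4 of 3659 reads), a ratio of 13.2 (counting interval 6.31 to 31.8) and a log2 odds ratio of 3.71 ± 0.49 (SE, adjusted p = 3.7e-05, edgeR). TARBP2 had 2 of 281 and 4 of 184 reads edited in sorted P-bodies, against 0 of 449, which allows a score of up to 0.668%, and 1 of 441 in cytosol. Its ratio was 11.5 (counting interval 1.39 to 528), so its size is not resolved at this depth, and its call (adjusted p = 0.039, edgeR) was lost with limma (0.054), without either sorted library (0.054 and 0.239) and without cytosol library 1 (0.114).

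Because scores of most genes were higher in sorted P-bodies, each member was also set against that common shift. Each library was centred on its median log odds over genes with an edited read in every sort library. After centring, the median of all genes tested was -0.01 for A-to-I and -0.13 for C-to-U. The tests below compare each member with 0 and not with these medians. For A-to-I the 4 Argonautes remained higher, AGO4 by 0.72 ± 0.22, AGO1 by 0.52 ± 0.14, AGO3 by 0.49 ± 0.16 and AGO2 by 0.30 ± 0.10 (log2, SE, adjusted p = 0.019, 0.0086, 0.0295 and 0.0285, edgeR), where 14.5% of all genes were higher and 14.1% lower, 28.6% in either direction. No other member passed: TNRC6A stood at 0.17, DICER1 at -0.0016, TNRC6B at -0.10, DROSHA at -0.22, TNRC6C at -0.32 and TARBP2 at -0.45 (adjusted p from 0.16 to 0.99, edgeR). Whether the Argonautes differed from the other members was not tested. For C-to-U the only member to pass was TNRC6B, which was lower (-0.73 ± 0.21, SE, adjusted p = 0.035, edgeR), where 8.57% of genes were higher and 6.93% lower, 15.5% in either direction. AGO4 (0.75 ± 0.36), AGO1 (0.51 ± 0.32) and DROSHA (1.22 ± 0.54) lay above 0, and AGO3 lay at -0.37 ± 0.22 (SE, adjusted p from 0.14 to 0.29, edgeR). TARBP2 (1.02 ± 1.54), AGO2 (0.11 ± 0.22) and TNRC6A (0.04 ± 0.29) also lay above 0. TNRC6C (-0.48 ± 0.27) and DICER1 (-0.32 ± 0.22) lay below it (SE, adjusted p from 0.24 to 0.94 for these and the preceding members, edgeR).

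**Figure D3:**
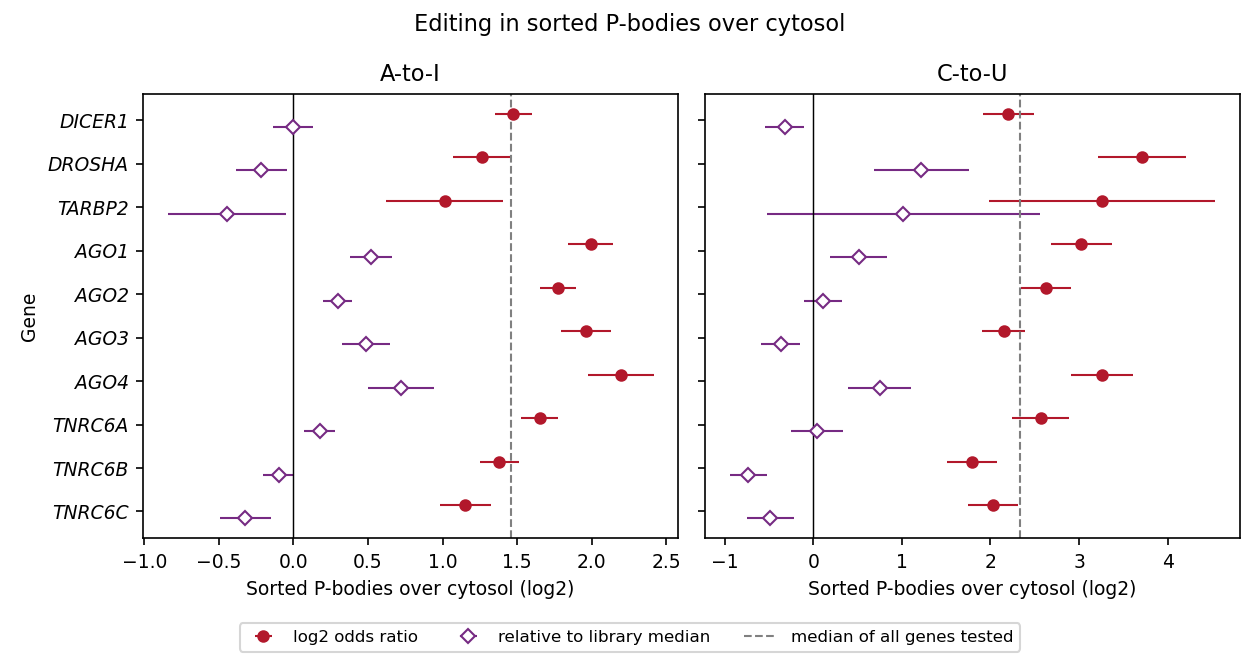
Log2 odds ratio of editing in sorted P-bodies over cytosol for each member (filled circles), with SE. Open diamonds give the same relative to each library's median log odds over genes edited in every sort library, with SE. The dashed line is the median of all genes tested before centring (1.46 for A-to-I and 2.33 for C-to-U). For A-to-I the diamonds of the 4 Argonautes lie between 0.30 and 0.72, and those of the GW182 and processing mRNAs lie between -0.45 and 0.17.

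Abundance and editing did not rank the members alike. DICER1, with the largest rise in abundance (log2 2.23), had an A-to-I odds ratio of 1.48, close to the median of all genes, while AGO4 and AGO1, which did not pass for abundance (-0.06 and -0.01), had odds ratios of 2.19 and 1.99. These measures share the sorted and cytosol libraries. The editors' scores also stood in different proportion: the C-to-U score over the A-to-I score was 0.985 and 0.958 for DICER1 and 0.898 and 0.910 for AGO3 in sorted P-bodies, against 0.610 and 0.584 for DICER1 and 0.710 and 0.880 for AGO3 in cytosol. TNRC6A had ratios of 0.365 and 0.320 in sorted P-bodies, against 0.210 and 0.124 in cytosol, and the medians over all genes were 0.388 and 0.427, against 0.200 and 0.191.

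The lists of partner genes were edited more in sorted P-bodies as well. For A-to-I, 15 of 15 Microprocessor and Dicer cofactors, 21 of 23 loading cofactors and 24 of 25 silencing effectors were higher and none lower, where 73.5% of all genes were higher. Their median log2 odds ratios were 1.71, 1.55 and 1.68, beside 1.46 over all genes. For C-to-U the counts were 13 of 15, 18 of 22 and 23 of 25, where 68% of all genes were higher, with medians of 3.51, 2.85 and 3.22, beside 2.33 over all genes. The helicase DDX5, which works with the Microprocessor, scored 7.66 and 8.15% for A-to-I in sorted P-bodies, against 1.11 and 0.975% in cytosol (3.03 ± 0.13, SE, adjusted p = 2.0e-10, edgeR). For C-to-U it scored 3.59 and 4.18%, against 0.204 and 0.0305% (5.11 ± 0.50, SE, adjusted p = 4.3e-06, edgeR). CNOT7, a deadenylase of the CCR4-NOT complex, scored 10.7 and 9.61% for A-to-I, against 1.75 and 1.59% (2.73 ± 0.22, SE, adjusted p = 2.1e-08, edgeR). PABPC1, the cytoplasmic poly(A)-binding protein, scored 2.15 and 3.13% for C-to-U, against 0.00882 and 0.0590% (6.24 ± 0.52, SE, adjusted p = 2.2e-06, edgeR). The cytosol scores of PABPC1 lie near 0 and differ between the libraries, so the size of its ratio is uncertain.

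The knockdown asked what EDC4 depletion changes. EDC4 itself had 245 and 186 reads in siEDC4 cells, against 684 and 609 reads in siNC cells (log2 -1.56 ± 0.14, SE, adjusted p = 2.6e-25, edgeR). The siNC libraries differed from each other by close to sampling noise in reads per gene (chi-square per degree of freedom 1.02, p = 0.062), whereas the siEDC4 libraries gave 3.46, so the siNC libraries were summed and counted as 1 sample. In edited reads the siNC libraries did differ beyond that noise (1.26 for A-to-I and 1.32 for C-to-U). None of the 10 members passed for reads, where 0.564% of the 10642 genes tested did (0.432% higher and 0.132% lower), and 1 member had an unadjusted p under 0.05; DESeq2 on the 4 libraries also called none. That member was AGO3, with 90.0 and 89.5 CPM in siEDC4 cells, against 109 and 109 CPM in siNC cells (547 and 510 reads, against 682 and 624). Its log2 fold change was -0.28 ± 0.12 (SE, unadjusted p = 0.025, adjusted p = 0.54, edgeR), and with the batch as a replicate block on 4 libraries it passed (-0.28, adjusted p = 0.032), where 4.9% of genes passed, 2.85% higher and 2.05% lower. On 4 libraries without siEDC4 library 1, AGO3, TNRC6A and DICER1 passed as lower (adjusted p = 0.0021, 0.032 and 0.0083, edgeR), where 15.1% of genes passed, 7.43% higher and 7.66% lower. Without siEDC4 library 2, AGO3 passed as lower and DROSHA as higher (adjusted p = 0.0016 and 0.0040), where 20% of genes passed, 9.95% higher and 10% lower. DICER1 had 316 and 295 CPM in siEDC4 cells, against 330 and 324 CPM in siNC cells, AGO2 342 and 337 CPM, against 344 and 352 CPM, and TNRC6B 159 and 149 CPM, against 146 and 146 CPM. The estimates of the 10 ran from -0.28 to 0.16, and CPM here are over listed genes and not comparable with those of the sort.

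Of the partner lists, only EDC4 and FKBP4, a cochaperone of HSP90, passed for reads. FKBP4 had 164 CPM in siEDC4 library 1 and 413 CPM in library 2, against 403 and 383 CPM in siNC cells (log2 -0.45 ± 0.11, SE, adjusted p = 0.013, edgeR), and so was low in 1 siEDC4 library and above both siNC libraries in the other.

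**Figure D4:**
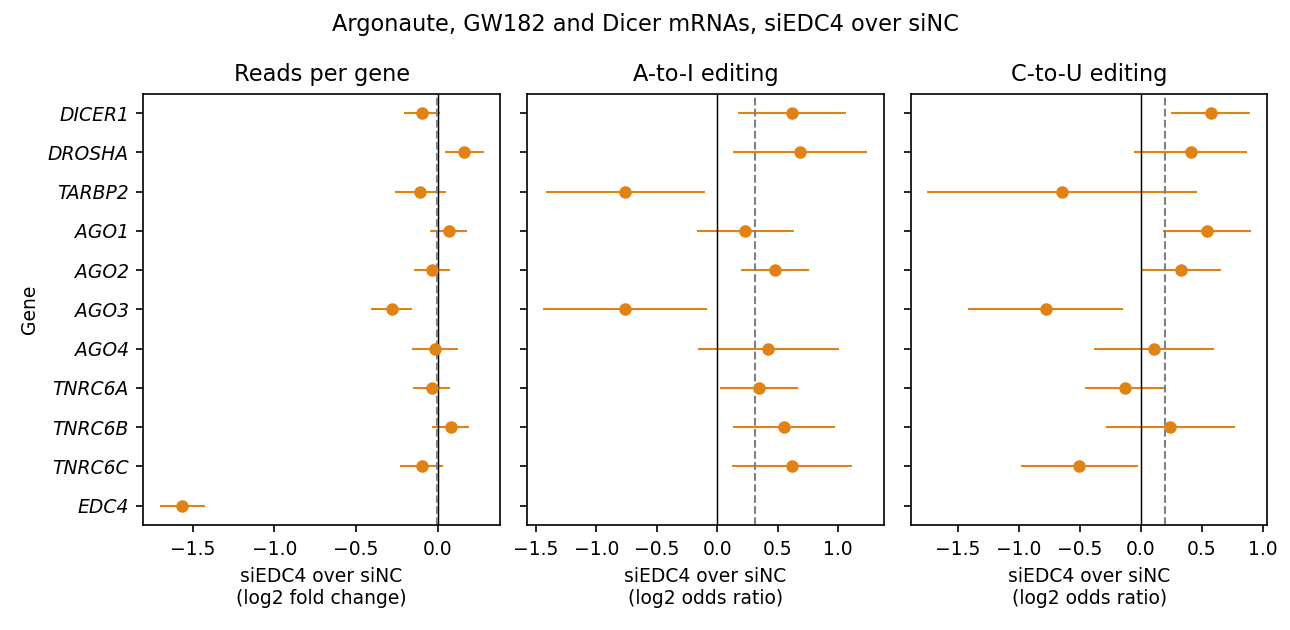
Change of each member in siEDC4 over siNC cells for reads (left, with EDC4), A-to-I editing (centre) and C-to-U editing (right), as log2 estimates with SE; dashed lines are the medians of all genes tested. EDC4 reads lie at -1.56, the members' reads lie between -0.28 and 0.16, and the editing estimates carry larger errors.

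Editing of the members did not pass for either editor after siEDC4. With siNC as 1 summed sample, and so 3 samples in all, the edgeR test called 0 of 9157 genes for A-to-I and 0 of 9646 for C-to-U, where 491 and 377 genes but no member had an unadjusted p under 0.05. Because the edited reads of the siNC libraries differed beyond sampling noise, the fit on 4 libraries is given beside it. It called 0 of 9271 and 0 of 9745 genes, with 705 and 613 at an unadjusted p under 0.05, among them 1 member (DICER1, for C-to-U), and adjusted p of the members ran from 0.65 to 0.91 and from 0.78 to 0.985 (edgeR). The limma test on 4 libraries also called 0 in both tables, with 823 and 617 genes at an unadjusted p under 0.05. AGO2 scored 4.24 and 4.27% for A-to-I in siEDC4 cells (88 of 2078 and 82 of 1919 reads), against 2.99 and 3.21% in siNC cells (64 of 2141 and 65 of 2023), the highest of the members in both groups. Its libraries did not overlap, and its log2 odds ratio was 0.47 ± 0.28 (SE, adjusted p = 0.845, edgeR). The share of all genes whose libraries separate in this way was not counted. TNRC6A scored 2.55 and 2.65% in siEDC4 cells, against 2.09 and 2.01% in siNC cells. DICER1 scored 1.66 and 3.27%, against 1.66 and 1.51%, so that 1 siEDC4 library lay at the siNC level and the other above it. The A-to-I estimate was above 0 for 8 of 10 members, with a median of 0.45 beside 0.31 over all genes, and the 2 below 0 were AGO3 and TARBP2, both at -0.76 with errors of 0.67 and 0.66.

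For C-to-U in the knockdown, DICER1 had the highest score of the members in siEDC4 cells, with 5.51 and 5.05% (107 of 1941 and 85 of 1684 reads), against 3.60 and 3.64% in siNC cells (74 of 2058 and 68 of 1869), a log2 odds ratio of 0.57 ± 0.32 (SE, adjusted p = 0.996, edgeR; 0.57 ± 0.26 and 0.78 on 4 libraries). Both siEDC4 libraries lay above both siNC libraries, as they did for AGO2 (4.66 and 4.74%, against 3.18 and 4.399%) and AGO1 (3.83 and 2.90%, against 2.51 and 2.13%). None of these members passed, and the share of all genes with such an order was not counted. AGO3 lay the other way, with 3 of 541 and 4 of 502 reads edited in siEDC4 cells, against 8 of 676 and 7 of 612 in siNC cells. Estimates were above 0 for 6 of 10 members, with a median of 0.17 beside 0.20 over all genes. With 7 to 192 edited reads summed per member and group for all but TARBP2 (4 and 7), the errors were 0.32 to 0.63 on the log2 scale for these 9, and changes of that size could not be detected with these libraries.

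The rank of a member's score among the genes of its library differed between the experiments for some members and not for others. DICER1 lay above 86.7 to 91.8% of genes for C-to-U in the sort libraries and above 79.7 to 88.7% in the knockdown libraries. AGO2 lay above 86.1 to 97.1% of genes for A-to-I in the sort and above 88.3 to 91.5% in the knockdown. AGO3 lay above 85.2 to 91.9% for C-to-U in the sort libraries, but above only 12.5 to 34.0% in the knockdown libraries. TNRC6B lay above 77.7 to 91.2% in the sort and above 29.2 to 61.3% in the knockdown. The tables come from separate experiments with different labelled molecules, and no test was made between them.

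**Figure D5:**
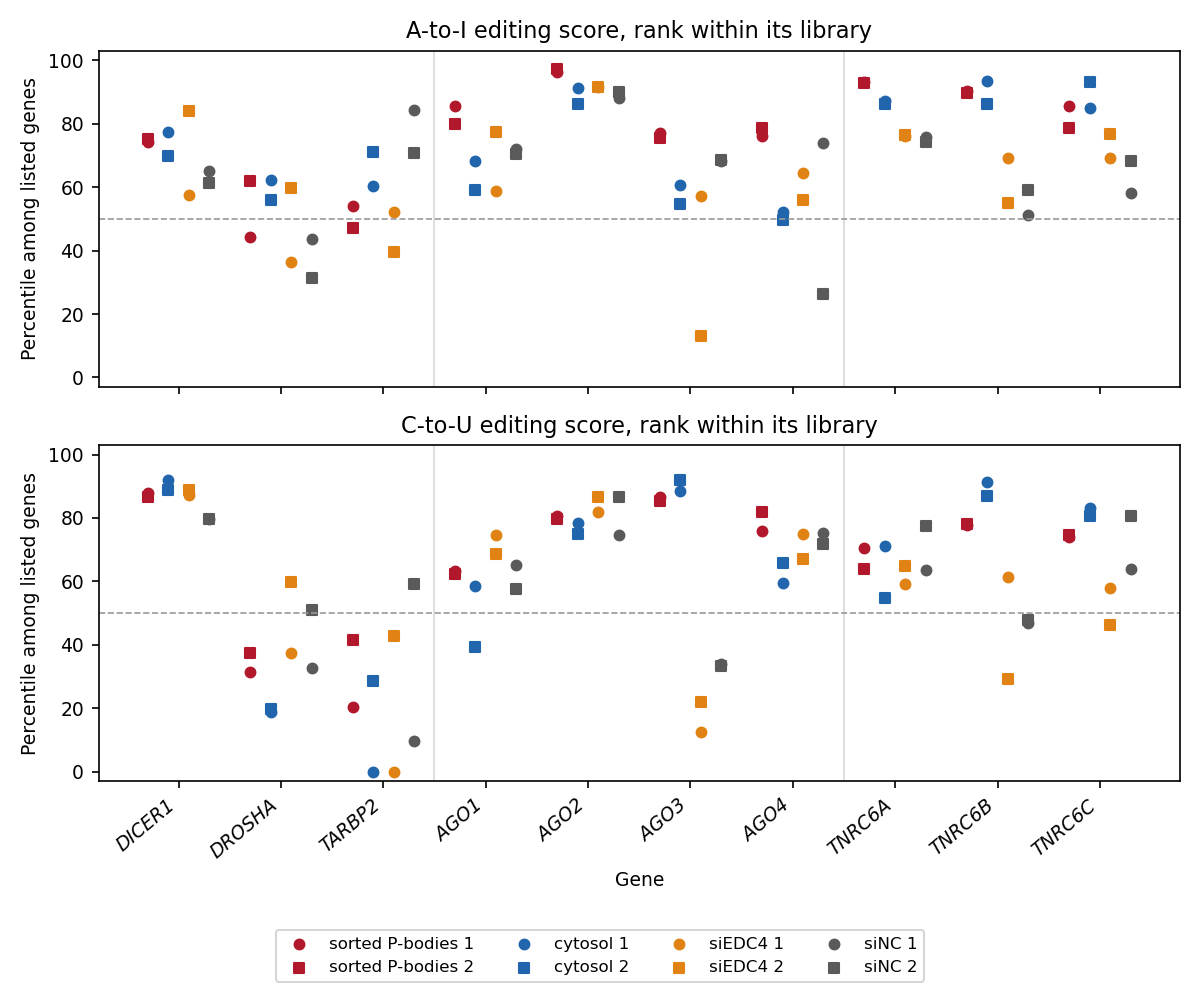
Percentile of each member's A-to-I (top) and C-to-U (bottom) score among the genes of the same library, for sorted P-bodies, cytosol, siEDC4 and siNC; the dashed line is the median gene. For C-to-U, AGO3 lies between 85.2 and 91.9 in the 4 sort libraries and between 12.5 and 34.0 in the 4 knockdown libraries, while DICER1 lies at 79.7 or above in all 8.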

How the data were processed

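Libraries were prepared after TRIzol extraction, per the labels' protocols, with 50 ng (sorted P-bodies), 100 ng (cytosol) or 500 ng (total RNA) as input. Tools listed in the submitters' processing notes are STAR 2.7.9a, featureCounts 2.0.1, cutadapt 1.18 and FastQC 0.11.9, with the build hg38; not given in the sources used here are the annotation, the strand setting, the treatment of reads with several matches and the calling of edited sites. Overlapping genes, such as DICER1-AS1 (7.77 CPM in sorted P-bodies, against 12.8 CPM in cytosol) beside DICER1, can therefore share reads with the members.

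The authors deposited raw counts per gene for the sort, and, per editor and experiment, tables of edited reads, reads and the editing score. The deposited reads and edited reads were entered as estimated counts because 3 broken lines per table hold other values; those lines were left out, and every value used was already whole, so rounding to whole numbers changed nothing. The deposited score is a fraction, equal to edited reads over reads, and is printed as a percentage.

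The test on counts was the quasi-likelihood test of edgeR 4.0.16 (R 4.3.3), with filterByExpr and TMM scaling. Editing was tested with the same model on edited and unedited reads, over genes edited in 2 or more libraries. Each test covered the genes of its table left after any filter, not the members alone. P-values were adjusted by the method of Benjamini and Hochberg, and a gene passed if its adjusted p was under 0.05. Simulated data were also used, but not shown for every test. Their outcome is not given here, so no error rate is drawn from them. SEs were obtained by dividing the estimate by the root of its F statistic and so restate the test. Alternatives used DESeq2 1.42.0 and limma 3.58.1; limma was run on log2 of score plus a pseudocount (0.293 or 2.93% for A-to-I and 0.0766 or 0.766% for C-to-U in the sort, 0.131 or 1.31% and 0.191 or 1.91% in the knockdown). The siNC libraries were summed as 1 sample. Transcript features came from the principal GENCODE v29 transcript of 13598 tested genes, and gene lengths from the count table. Intervals are exact at 95% and cover counting error only.

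The labels give same-numbered libraries a shared batch number, which pairs them. Deviations of same-numbered libraries from their group means correlated at 0.092 in gene counts, -0.029 in knockdown reads and 0.0052 to 0.027 in scores.

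The 10 members, the partner lists and the tests were chosen with earlier results of these data known. Named genes are the members, EDC4, up to 3 genes per partner list and comparison with the largest estimates past the threshold, and the 3 genes nearest to AGO2, TNRC6B and DICER1 over 6 comparisons.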

Additional observations from a re-analysis of the deposited data

How the results depend on the processing

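Of 580 alternative values with a test, 530 kept their direction and their side of the threshold. With a sort library left out, abundance estimates kept their sign for all members but AGO1 and AGO4. They ran from 1.95 to 2.44 for DICER1, from 0.43 to 0.62 for AGO3 and from -0.51 to -0.32 for TARBP2. The calls of AGO3 and TARBP2 did not hold throughout. After centring each library on its median, 4 members (A-to-I) and 1 member (C-to-U) passed in place of 10, with -0.10 for TNRC6B, -0.32 for TNRC6C, -0.0016 for DICER1, -0.45 for TARBP2 and -0.22 for DROSHA in A-to-I, and -0.37 for AGO3, -0.73 for TNRC6B, -0.48 for TNRC6C and -0.32 for DICER1 in C-to-U; genes called fell to 3231 and 1646, against 8433 and 7252. With a sort library left out, editing estimates of all 10 members stayed above 0 for both editors. The calls of TARBP2 did not hold throughout, and its estimates ran from 0.92 to 1.11 for A-to-I and from 2.40 to 5.51 for C-to-U. AGO1 abundance was 0.027 under RLE scaling, and without either sorted library AGO1 ran from -0.074 to 0.028 and AGO4 from -0.17 to 0.012, and the length trend removed gave -0.10 for AGO3, with no test and so no count of members called.

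For knockdown reads, the replicate block called 1 member (AGO3) in place of 0, and 521 genes in place of 60; it changed no other member's call among 60. With 4 libraries, leaving out 1 gave 0 to 3 members: without siEDC4 library 1, 3 (AGO3, TNRC6A and DICER1, all lower), with 1606 genes called; without siEDC4 library 2, 2 (AGO3 lower and DROSHA higher), with 2127 genes called. The 2 siNC libraries, close to sampling noise from each other, then alone give the spread. All 4 libraries called 154 genes and no member. Not past the threshold, signs turned for AGO4 reads (0.018 and 0.049 without siEDC4 1 and siNC 1), TNRC6A reads (0.059 without siEDC4 2), AGO1 A-to-I (-0.075 centred, -0.15 without siEDC4 2), AGO4 A-to-I (-0.14 without siNC 2), and, for C-to-U, AGO4 (-0.10 centred, -0.15 without siEDC4 1), TNRC6B (-0.65) and TARBP2 (0.36) without siEDC4 1, and TNRC6A (0.14) and TARBP2 (1.14) without siNC 2. With a library left out, knockdown editing called 0 members. The block called 26 genes for A-to-I and 4 for C-to-U in place of 0. The cause of these changes was not tested, and scores from under 10 edited reads are limited by depth.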

Other observations

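Among the GW182 mRNAs, the balance of TNRC6B and TNRC6A differed between the experiments. In the reads of the A-to-I tables, TNRC6B had 1.72 and 1.68 times the reads of TNRC6A in the sorted P-body libraries, 1.69 and 1.72 times in the cytosol libraries, 0.615 and 0.661 times in siEDC4 cells and 0.574 and 0.602 times in siNC cells. The 4 sort libraries all lay above 1 and the 4 knockdown libraries all lay below it. AGO3 over AGO1, by the same count, was 0.800 and 0.8501 in the sorted libraries, 0.584 and 0.566 in the cytosol libraries, 0.466 and 0.434 in siEDC4 cells and 0.570 and 0.576 in siNC cells. The sort and the knockdown are separate experiments, with molecules labelled as total RNA (sorted P-bodies), cytoplasmic RNA (cytosol) and polyA RNA (knockdown), and no test was made between them.

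DROSHA, whose abundance did not pass between the fractions, had 8 of 7012 reads C-to-U edited in cytosol and 22 of 1507 in siNC cells, whereas the median score of all genes was 0.633 and 0.595% in cytosol libraries and 1.77% in both siNC libraries.

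By the distance over 6 comparisons (abundance or reads, A-to-I and C-to-U in the sort and the knockdown, each scaled by its spread over 4339 genes), the genes with the pattern most like AGO2 were EDEM3 (0.334), UBL3 (0.367) and RNF14 (0.388). The nearest to TNRC6B were ANKIB1 (0.393), RPS6KA6 (0.481) and DOCK11 (0.613), and the nearest to DICER1 were FANCB (0.503), TMF1 (0.534) and ZZZ3 (0.597). In the knockdown, the main tests called 0 genes for either editor and 0.564% for reads. The distances there thus rest mostly on estimates that did not pass. They were not set beside distances between other genes.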
